A study of Mus musculus with 6 samples.

Results

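The 9 genes described here encode surface proteins that define or mark the long-term hematopoietic stem cell (LT-HSC) of mouse bone marrow, namely Kit, Ly6a, Slamf1, Cd48, Cd34, Flt3, Procr, Tek and Cxcr4. They were chosen by symbol, and all 9 were found among the 12179 genes of the deposited normalized table and, by the same gene identifier, among the 27179 genes of the deposited read counts. RNA-Seq was performed on LT-HSCs, sorted as CD150+CD48- LSK cells (lineage-negative, Sca-1+, c-Kit+), from the bone marrow of C57BL/6 mice at 8 weeks of age, with 3 WT and 3 Foxm1 HET libraries. Foxm1 HET cells carry 1 deleted allele of Foxm1, a forkhead transcription factor of the cell cycle. The titles of these libraries name the floxed Foxm1 allele and no Cre. Elsewhere in the study the deletion was made with Tie2-Cre or Mx1-Cre and controls had the floxed allele without Cre, and the driver used for these libraries is not given in the sources used here. Tie2 is the protein encoded by Tek, so that Tie2-Cre mice carry a Cre transgene under the promoter of 1 of the 9 genes, and the counts do not tell where along Tek a read lay.

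The gate itself rests on 4 of the proteins. Kit (c-Kit, CD117) is the receptor of stem cell factor, Ly6a (Sca-1) is a GPI-anchored protein of the Ly6 family, and Slamf1 (CD150) and Cd48 are members of the SLAM family, the former carried by LT-HSCs and the latter by most other hematopoietic cells. Cd34 and Flt3 are absent from or low on the surface of adult mouse LT-HSCs and appear as these become short-term HSCs and multipotent progenitors. Procr (EPCR, CD201), Tek (the receptor of the angiopoietins) and Cxcr4 (the receptor of Cxcl12) are found on HSCs and take part in their retention and quiescence in the niche. The sort acted on protein at the cell surface, whereas the libraries measured RNA.

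The genes lie on chromosomes 1, 2, 4, 5 and 15 of GRCm38. Cd48 (171682055 to 171705257) and Slamf1 (171767132 to 171801184) are neighbors on the plus strand of chromosome 1, 61874 bases apart. The same chromosome holds Cd34 (194938821 to 194961292, plus strand) and Cxcr4 (128588199 to 128592299, minus strand). Kit (75574987 to 75656722, plus strand) and Flt3 (147330741 to 147400489, minus strand), both class III receptor tyrosine kinases, share chromosome 5. Procr lies on chromosome 2 (155751217 to 155755478, plus strand), Tek on chromosome 4 (94739300 to 94874939, plus strand) and Ly6a on chromosome 15 (74994877 to 74997888, minus strand).

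Promoter sequences (250 bases before to 50 bases after the start of the transcript, RefSeq, GRCm38.p6) were matched for 8 of the 9 genes, the exception being Ly6a. Those of 3 genes are shown: Kit was detected in all 6 libraries, Tek had genotypes that did not overlap, and Cxcr4 had the lone forkhead motif. Whether motifs have a part in the levels was not tested. They lie at chr5:75574737-75575036 (plus strand), chr4:94739039-94739338 (plus strand) and chr1:128592250-128592549 (minus strand), and are written 5′ to 3′ along the gene, with motif letters in capitals.
Kit: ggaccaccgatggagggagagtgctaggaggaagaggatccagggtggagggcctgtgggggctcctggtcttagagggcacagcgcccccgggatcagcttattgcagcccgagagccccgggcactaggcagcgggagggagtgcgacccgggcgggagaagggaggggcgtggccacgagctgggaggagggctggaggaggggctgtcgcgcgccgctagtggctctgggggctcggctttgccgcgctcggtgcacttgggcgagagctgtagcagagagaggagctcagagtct
Tek: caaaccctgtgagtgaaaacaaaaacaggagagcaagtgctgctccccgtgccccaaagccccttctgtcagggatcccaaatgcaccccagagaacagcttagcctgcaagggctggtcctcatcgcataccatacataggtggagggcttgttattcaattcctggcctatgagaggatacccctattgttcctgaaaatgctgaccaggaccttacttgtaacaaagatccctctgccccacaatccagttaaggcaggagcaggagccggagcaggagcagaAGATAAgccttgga
Cxcr4: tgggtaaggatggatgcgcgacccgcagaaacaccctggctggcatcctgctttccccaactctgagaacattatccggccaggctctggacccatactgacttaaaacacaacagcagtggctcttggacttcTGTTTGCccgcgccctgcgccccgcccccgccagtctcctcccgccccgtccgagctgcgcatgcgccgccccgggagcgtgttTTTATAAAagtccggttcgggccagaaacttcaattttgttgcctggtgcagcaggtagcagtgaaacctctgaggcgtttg
Letters searched on both strands were TGTTTAC or TGTTTGC for forkhead factors, AGATAA or TGATAA for GATA factors, CCGGAA for ETS factors, TGTGGT for RUNX factors and TATAAA for a TATA box. Cxcr4 had TGTTTGC at position -116 and overlapping TATA letters, 1 match on each strand, at -32 and -30. Tek had AGATAA at position 37. Kit, Cd34, Flt3 and Procr had none of these letters, Slamf1 had TGATAA at -130, and Cd48 had TGTGGT at -76 and the reverse complement of CCGGAA at 8. Among the 32851 promoters of the table, 8.48% held a forkhead, 18.6% a GATA, 14.9% an ETS, 16.8% a RUNX and 13.6% a TATA match, and a match describes the letters alone.

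Library totals ran from 14573002 to 25798509 counted reads, and between 4467 (Foxm1 HET 2) and 9894 (Foxm1 HET 1) genes had at least 10 reads. Libraries were scaled by TMM (trimmed mean of M values), with factors from 0.453 in Foxm1 HET 2 to 1.67 in Foxm1 HET 3. Levels are given as log2 CPM, the read counts per scaled library size on a log2 scale, and, where genes are compared, as TPM, which divides counts by gene length and has the same sum in every library. Libraries of 1 genotype differed widely, with a median biological coefficient of variation of 1.69 over the 8195 genes that passed the filter on low counts, and a median range of 8.1 log2 units over the 6 libraries. Foxm1 had 1182, 2615 and 2942 reads in WT 1, 2 and 3 and 659, 5 and 742 in Foxm1 HET 1, 2 and 3. Its log2 CPM did not overlap between the genotypes, as for 8.68% of all genes tested. The log2 fold change of Foxm1 was -3.30 (SE 2.33, edgeR adjusted p = 0.961). Per the study's methods the mice were harvested as pairs of a heterozygous and a control mouse, but no source used here ties the replicate numbers to those pairs, and all p-values rest on the spread between these libraries. In bulk RNA, fewer cells with a transcript and less of the transcript per cell cannot be told apart.

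Of the genes for which the cells were positively sorted, Kit was the one detected throughout. Kit had 10720, 41801 and 14991 reads in WT 1, 2 and 3 and 30282, 18773 and 48031 reads in Foxm1 HET 1, 2 and 3. The highest and the lowest library, Foxm1 HET 2 and WT 1, lay 2.58 apart in log2 CPM, and in each library its TPM exceeded that of between 95.0% and 99.4% of the tested genes. The biological coefficient of variation of Kit was 1.25, and 0.464% of tested genes had a lower one. In log2 CPM, Kit measured 8.92, 10.85 and 9.87 in WT against 9.63, 11.50 and 10.17 in Foxm1 HET. The genotypes overlapped, with means of 9.88 ± 0.966 in WT against 10.43 ± 0.962 in Foxm1 HET (SD, n = 3). The log2 fold change of Foxm1 HET over WT was 0.57 (SE 1.29, edgeR adjusted p = 0.998), and it was -0.12 without Foxm1 HET 2.

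Ly6a, whose product Sca-1 was part of the gate, ranged from near absence to a high level within a genotype. It had 125, 4 and 2 reads in WT 1, 2 and 3 and 2261, 2 and 1597 reads in Foxm1 HET 1, 2 and 3. Foxm1 HET 1 and 3 stood above all WT libraries, while Foxm1 HET 2 lay with WT 2 and 3, so the genotypes overlapped. Its log2 CPM averaged -0.57 ± 2.68 in WT against 3.27 ± 4.02 in Foxm1 HET (SD, n = 3). The log2 fold change of 4.03 had an SE of 3.12 and an edgeR adjusted p of 0.982, and it ran from 3.43 (without Foxm1 HET 1) to 7.83 (without WT 1) with each library left out. Of the stretches of 50 bases along the Ly6a transcripts, 19.0% also occur in other genes of the Ly6 cluster, so that reads could be split between them. Ly6c2, the abundant relative, had 883, 48 and 1916 reads in WT against 3961, 1270 and 100 in Foxm1 HET, a different order of libraries.

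Slamf1, which encodes the CD150 by which the cells were sorted, was scarce. It had 2, 1572 and 0 reads in WT 1, 2 and 3 and 8, 0 and 543 reads in Foxm1 HET 1, 2 and 3, and it did not pass the filter on low counts. Nearly all of its reads came from WT 2 and Foxm1 HET 3, 1 library of each genotype. In WT 3 and Foxm1 HET 2 a count of 0 allows up to 0.139 and 0.206 CPM (3 reads of the total, counting error only). Without the filter, its log2 fold change was -2.39 (SE 3.13, edgeR adjusted p = 0.766). The two-sided exact permutation test on log2 CPM gave p = 0.9 for means of -0.01 ± 5.34 in WT against -0.56 ± 3.81 in Foxm1 HET (SD, n = 3).

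Cd48, whose product the sort excluded, had at least 10 reads in 4 libraries. Its reads numbered 221, 6608 and 1 in WT 1, 2 and 3 and 1285, 5 and 22 in Foxm1 HET 1, 2 and 3. In log2 CPM, Foxm1 HET 3 with 22 reads lay at -0.72, below Foxm1 HET 2 with 5 reads at -0.23. In WT 2 Cd48 reached 584 TPM, above 98.2% of tested genes, and Slamf1 had 59.0 TPM in the same library. The means of its log2 CPM were 2.91 ± 5.51 in WT against 1.38 ± 3.22 in Foxm1 HET (SD, n = 3), with overlap. Cd48 had a log2 fold change of -3.11 (SE 2.39, edgeR adjusted p = 0.982), which ran from -7.27 without Foxm1 HET 1 to 1.18 without WT 2.

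Read against the gate as a whole, at least 10 reads for Kit, Ly6a and Slamf1 together were found in 1 library, Foxm1 HET 3. WT 1 and Foxm1 HET 1 had Kit and Ly6a, WT 2 had Kit and Slamf1, and WT 3 and Foxm1 HET 2 had Kit alone. WT 3 and Foxm1 HET 2 were also the libraries with fewer than 10 reads of Cd48.

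**Figure D1:**
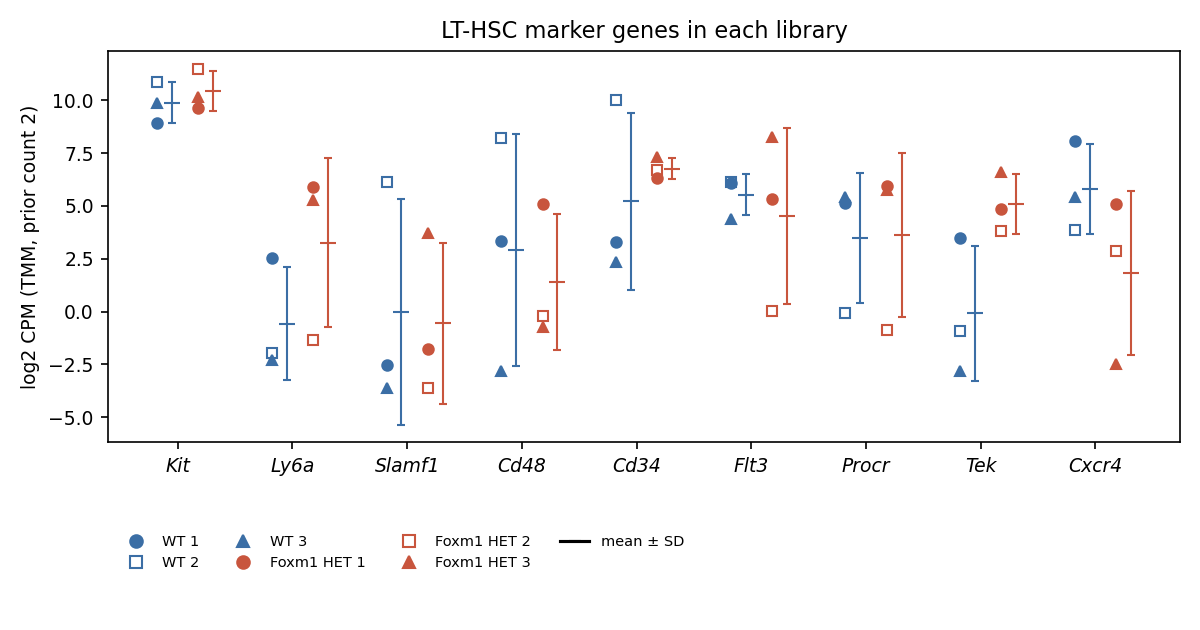
Log2 CPM (TMM, vertical axis) of each of the 9 marker genes in the 3 WT and 3 Foxm1 HET libraries, with horizontal bars at the mean of each genotype. Kit stays between 8.92 and 11.50, while Cd48 runs from -2.79 to 8.19, and under this scaling Tek alone has all Foxm1 HET libraries above all WT libraries.

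Cd34 and Flt3, the genes by which short-term HSCs and multipotent progenitors are told from LT-HSCs, were both expressed, and their highest values stood in different libraries. Cd34 had 215, 23321 and 80 reads in WT 1, 2 and 3 and 2996, 671 and 6626 reads in Foxm1 HET 1, 2 and 3. WT 2 was the highest and WT 3 the lowest of all libraries, with the 3 Foxm1 HET libraries between WT 1 and WT 2. In log2 CPM the spread was 5.22 ± 4.18 in WT against 6.77 ± 0.508 in Foxm1 HET (SD, n = 3). The direction for Cd34 depended on the scale. The edgeR log2 fold change, a ratio of fitted mean levels, was -1.62 (SE 1.68, adjusted p = 0.998), whereas in the normalized table Foxm1 HET was higher by 1.70 (SE 1.93, limma adjusted p = 0.93). Without WT 2 the edgeR log2 fold change was 3.92. Of the Cd34 exon bases, 5.65% overlap the antisense gene Gm16897, which had 37, 1 and 0 reads in WT against 477, 0 and 63 in Foxm1 HET, and the use of strand in counting is not given in the sources used here.

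Flt3 encodes the receptor of Flt3 ligand. It had 1480, 1580 and 336 reads in WT 1, 2 and 3 and 1540, 6 and 12648 reads in Foxm1 HET 1, 2 and 3. The highest and the lowest library were both Foxm1 HET, and the WT libraries lay between them. Mean log2 CPM was 5.53 ± 0.982 in WT against 4.53 ± 4.17 in Foxm1 HET (SD, n = 3), so that Foxm1 HET was lower on this scale. The edgeR log2 fold change was 1.12 (SE 2.03, adjusted p = 0.998), and -1.22 without Foxm1 HET 3.

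Among the genes of retention and quiescence, Procr was present or near absent irrespective of genotype. It had 776, 20 and 677 reads in WT 1, 2 and 3 and 2368, 3 and 2264 reads in Foxm1 HET 1, 2 and 3. A single library of each genotype, WT 2 and Foxm1 HET 2, was low, and the other 4 measured between 5.14 and 5.96 in log2 CPM. The means were 3.50 ± 3.07 in WT against 3.62 ± 3.89 in Foxm1 HET (SD, n = 3), with a log2 fold change of 0.58 (SE 2.51, edgeR adjusted p = 0.998) and of -0.024 without WT 2. The library with the most Cd34, Cd48 and Slamf1 reads, WT 2, was thus the WT library with the fewest Procr reads.

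Under TMM scaling, Tek was the one gene of the 9 whose genotypes did not overlap. It had 242, 10 and 1 reads in WT 1, 2 and 3 and 1082, 91 and 4071 reads in Foxm1 HET 1, 2 and 3. In log2 CPM these were 3.46, -0.93 and -2.79 in WT against 4.83, 3.82 and 6.61 in Foxm1 HET, so the lowest Foxm1 HET library, HET 2, stood just above the highest WT library, WT 1. The means were -0.09 ± 3.21 in WT against 5.09 ± 1.41 in Foxm1 HET (SD, n = 3), with p = 0.1 in the two-sided exact permutation test, the smallest that 3 libraries against 3 allow. The log2 fold change was 3.61 (SE 2.91, edgeR adjusted p = 0.982) and ran from 2.55 without Foxm1 HET 3 to 7.60 without WT 1. With libraries scaled by their totals alone the separation was lost, since WT 1 then had 12.0 CPM and Foxm1 HET 2 had 6.24 CPM. In the normalized table Tek measured 2.32, 1.24 and 0.73 in WT against 3.16, 4.24 and 5.87 in Foxm1 HET, again without overlap.

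Cxcr4 had its highest value in WT 1 and its lowest in Foxm1 HET 3. Its reads numbered 5969, 328 and 688 in WT 1, 2 and 3 and 1275, 47 and 4 in Foxm1 HET 1, 2 and 3. In log2 CPM these were 8.08, 3.87 and 5.43 in WT against 5.07, 2.88 and -2.50 in Foxm1 HET. The genotypes overlapped because Foxm1 HET 1 exceeded WT 2. The means were 5.79 ± 2.13 and 1.82 ± 3.89 (SD, n = 3), with an exact permutation p of 0.2. The log2 fold change of -3.002 (SE 2.33, edgeR adjusted p = 0.982) ranged from -4.96 without Foxm1 HET 1 to -0.98 without WT 1. Foxm1 HET 3, with 4 reads of Cxcr4, had the highest log2 CPM of Tek (6.61) and Flt3 (8.24) among all libraries. It also had the most reads of Kit, but not the highest log2 CPM of Kit (10.17, against 11.50 in Foxm1 HET 2).

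Set side by side, 5 of the 8 tested marker genes had a positive and 3 a negative log2 fold change, with a median of 0.57 against -0.26 over all 8195 genes tested. By edgeR, 0 of the 8 passed an adjusted p of 0.05, where 0.329% of all genes tested did, and 0 passed an unadjusted p of 0.05, where 6.03% did (3.44% higher and 2.59% lower in Foxm1 HET). DESeq2 gave an unadjusted p under 0.05 for 2 of the 8, Ly6a and Tek (10.1% of all genes tested), with 0 adjusted (2.37%), and limma-voom for Tek (3.31%). In the normalized table, limma gave unadjusted p-values of 0.0377 for Ly6a, higher by 3.90 log2 units (SE 1.52), and 0.0208 for Tek, higher by 2.99 (SE 1.001), against 4.73% of its 12179 genes and 2.26% in this direction, and 0 of the 9 had an adjusted p under 0.05 (both 0.93). The normalized table comes from the same reads, so it is another scaling and no second measurement. Its order of libraries can differ from that of log2 CPM. Tek measured 3.16 in Foxm1 HET 1 and 4.24 in Foxm1 HET 2 there, against 4.83 and 3.82 in log2 CPM. Genotypes that did not overlap were 1 of 8 among the markers and 8.68% of all genes tested, with 4.12% higher in Foxm1 HET, as Tek was, and 4.55% lower. In the normalized table, Tek was again the 1 of 9 without overlap, against 9.64% of genes.

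The markers that separated the genotypes changed with the libraries used. Without WT 2, the count of markers with no overlap was 3 (Cd34, Tek and Cxcr4), without Foxm1 HET 2 it was 3 (Ly6a, Procr and Tek), without WT 1 it was 2 (Ly6a and Tek), and without Foxm1 HET 1 it was 2 (Tek and Cxcr4). Without WT 3 or Foxm1 HET 3 it was Tek alone. Among all genes tested, 15.3% to 22% did not overlap once 1 library was left out, since fewer values then have to be ordered. The SE of the 8 log2 fold changes lay between 1.29 and 3.12, so the lack of a call for a marker does not show that its level was alike in the genotypes.

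**Figure D2:**
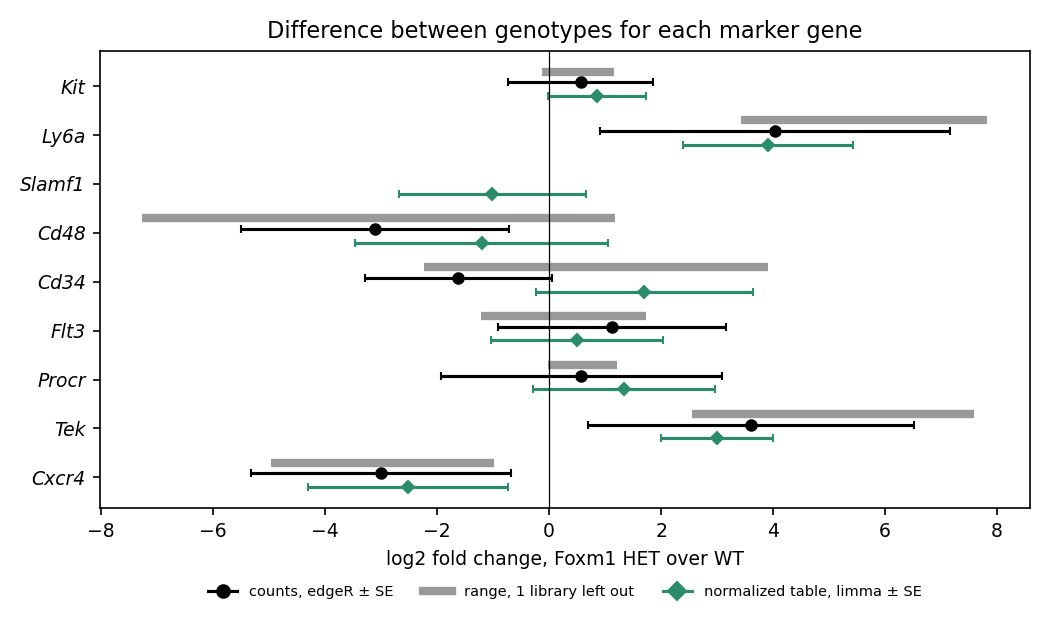
Log2 fold change of Foxm1 HET over WT (horizontal axis) for each marker gene, from edgeR on the counts (black, ± SE) and limma on the normalized table (green, ± SE), with gray bars for the range when each library is left out in turn. Slamf1, below the filter on low counts, has no value from the counts, Cd34 lies at -1.62 in the counts and at 1.70 in the normalized table, and the gray bars of Ly6a, Tek and Cxcr4 do not reach 0.

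The markers also differed in how high they were expressed per length. By median TPM over the 6 libraries the order was Kit (514), Cd34 (66.3), Procr (49.0), Flt3 (39.1), Cxcr4 (26.8), Cd48 (11.4), Ly6a (8.43), Tek (4.29) and Slamf1 (0.163). Without mitochondrial and ribosomal RNA genes, mean TPM of the markers was 1.77 to 2.05 times as high. Kit ranked first in 4 libraries, Cxcr4 in WT 1 with 357 TPM and Cd34 in WT 2 with 898 TPM. Slamf1 was last in 4 libraries. For the 8 pairs of neighbors in this order, the smallest p of a two-sided exact paired permutation test on log2(TPM + 1) was that of Kit over Cd34. Kit was higher in 5 of 6 libraries, by 3.08 ± 2.20 (SD, n = 6, exact p = 0.0625, Benjamini-Hochberg adjusted p = 0.5 over the 8 pairs). The other 7 pairs had raw exact permutation p-values of at least 0.281 and adjusted values of 0.938. With 6 libraries this test cannot go below 0.0312, or 0.25 after adjustment for a single pair among 8, so it could not have called a lone difference. The order and its pairs were set by the same 6 libraries, with both genotypes pooled. Apart from Kit over Cd34, the SD of each difference between neighbors exceeded its mean.

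**Figure D3:**
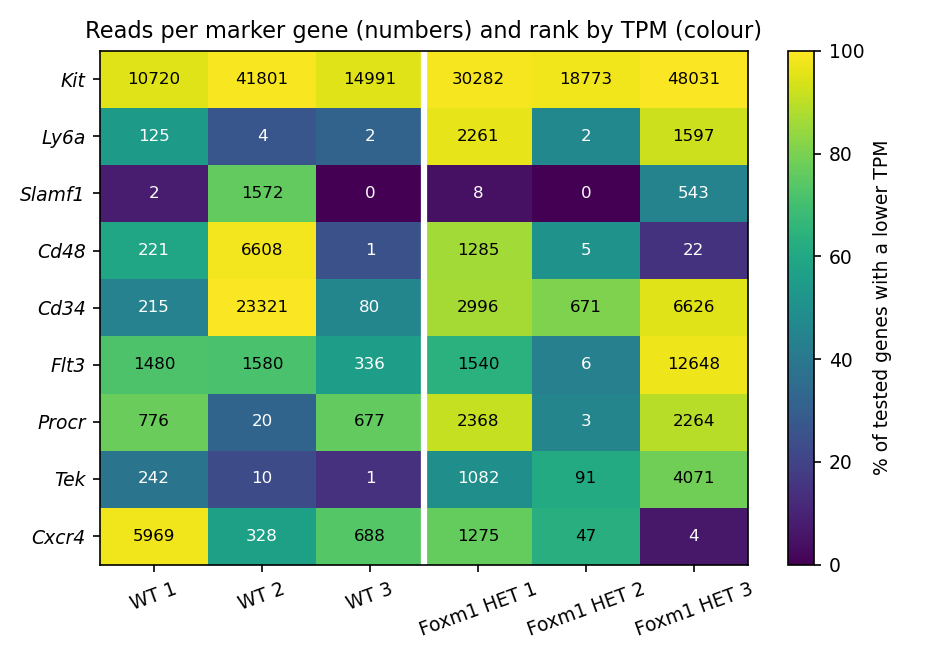
Percent of the tested genes with a lower TPM (color) for each marker gene (rows) in each library (columns). Kit lies between 95.0% and 99.4% in every library, and the other 8 markers each change place by library; in Foxm1 HET 2, where 50.6% of tested genes had at least 10 reads, a few reads already give a middle rank.

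Detection of the markers moved with the number of genes detected in a library. At least 10 reads were found for 8, 8 and 5 of the 9 markers in WT 1, 2 and 3 and for 8, 4 and 8 in Foxm1 HET 1, 2 and 3. The libraries with the fewest markers, WT 3 and Foxm1 HET 2, also had the smallest shares of tested genes with at least 10 reads, 66.8% and 50.6%, against 74.7% to 95.3% in the other 4. Kit and Cd34 reached 10 reads in all 6 libraries, as did 30.7% of tested genes. Flt3, Procr, Tek and Cxcr4 did so in 5 libraries, Cd48 in 4, Ly6a in 3 and Slamf1 in 2. Whether the number of genes detected has a part in the values of Ly6a, Tek or the other markers was not tested.

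**Figure D4:**
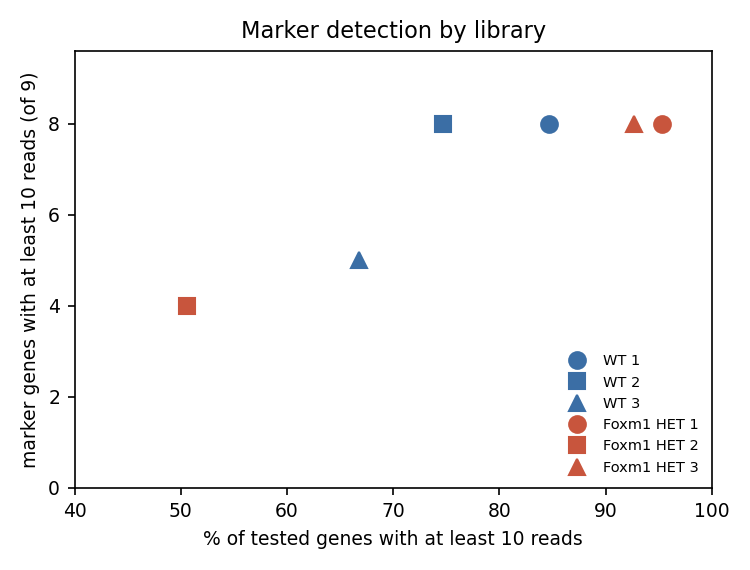
Number of the 9 marker genes with at least 10 reads (vertical axis) against the percent of tested genes with at least 10 reads (horizontal axis), 1 point for each library. WT 3 (5 markers, 66.8%) and Foxm1 HET 2 (4 markers, 50.6%) lie apart from the other 4 libraries, each of which has 8 markers.

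Ligands and partners of the marker proteins were measured in the same cells, as 16 genes of which 8 were tested, 4 with a positive and 4 with a negative log2 fold change (median 0.03). Kitl, which encodes stem cell factor, had 0 reads in every library, which allows up to 3 reads in each. Cxcl12, the ligand of Cxcr4, had 412 reads in Foxm1 HET 2 and at most 1 elsewhere. Flt3l had 817 reads in WT 2, 12 in Foxm1 HET 1, 28 in Foxm1 HET 3 and 0 in the others, with a log2 fold change of -5.14 (SE 3.53, edgeR adjusted p = 0.957). Angpt1, the ligand of the Tek receptor, was found throughout, with 969, 3181 and 2194 reads in WT against 3095, 1078 and 10400 in Foxm1 HET and a log2 fold change of 0.63 (SE 1.81, edgeR adjusted p = 0.998).

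Cd244, the SLAM family receptor that binds Cd48, was the gene of this list with the smallest p. It had 2, 11768 and 4 reads in WT against 16, 5 and 154 in Foxm1 HET, and its log2 fold change of -6.73 (SE 2.55, unadjusted p = 0.00828, adjusted p = 0.441 by edgeR) came with overlapping genotypes. Nearly all of its reads were in WT 2, the library highest in Cd48. Selp, which encodes P-selectin, had 22, 1 and 0 reads in WT against 1793, 388 and 170 in Foxm1 HET, and a log2 fold change of 6.71 (SE 3.52, edgeR adjusted p = 0.853). The genotypes did not overlap for Selp, as for 8.68% of all genes tested. Angpt2 had 85, 0 and 0 reads in WT against 0, 296 and 154 in Foxm1 HET. By edgeR, 0 of the 8 genes had an adjusted p under 0.05 and 1 an unadjusted one, where the share over all genes tested was 6.03%.

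Downstream of Kit and Flt3, 24 of 26 listed signalling genes were tested, 14 with a positive and 10 with a negative log2 fold change (median 0.24), of which 2 had an unadjusted p under 0.05, where 6.03% of all genes tested did, and 0 an adjusted one by edgeR. Both were lower (2.59% of all genes). The Src family kinase Fyn had 2353, 9682 and 3292 reads in WT against 682, 53 and 113 in Foxm1 HET (log2 fold change -4.68, SE 2.13, edgeR adjusted p = 0.731). Gab2, a docking protein for PI3K and SHP2, had 7608, 9040 and 21849 reads in WT against 2902, 19 and 3916 in Foxm1 HET (log2 fold change -3.61, SE 1.69, edgeR adjusted p = 0.753). In each of the 2 genes the genotypes did not overlap, as in 8.68% of all genes tested. Next by p were Stat5a, the transcription factor below both receptors, and Sh2b3 (Lnk), an inhibitor of their signalling. Stat5a had 1177, 460 and 1238 reads in WT against 646, 5997 and 1094 in Foxm1 HET. Sh2b3 had 824, 236 and 8 reads in WT against 1771, 2286 and 922 in Foxm1 HET.

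Some other genes by which LT-HSCs are known were as abundant as Kit. Per length, Gpr56 exceeded Kit in 6 of 6 libraries, and the transcription factor gene Hlf had between 171 and 782 TPM. Both were named after their values were seen. Of 38 genes of this kind (39 symbols, 1 of them a synonym), 33 were tested, 8 with a positive and 25 with a negative log2 fold change. Their median was -0.44 beside -0.26 over all genes tested, and edgeR gave 5 an unadjusted p under 0.05, 3 higher and 2 lower, and 0 an adjusted one. Over all genes tested these shares were 6.03% (3.44% higher and 2.59% lower) and 0.329%, and 3724 of the 8195 log2 fold changes were positive. Those with the smallest p were Mecom, a transcription factor gene of HSC maintenance, the integrin gene Itgb3, Ndn and the TNF receptor family gene Cd27. Mecom had 910, 4431 and 60 reads in WT against 1393, 21758 and 9561 in Foxm1 HET (log2 fold change 3.91, SE 1.60, edgeR adjusted p = 0.555) with overlap. Itgb3 had 4, 263 and 13 reads in WT against 1356, 2458 and 1298 in Foxm1 HET (log2 fold change 5.14, SE 2.44, edgeR adjusted p = 0.768). Ndn had 15, 243 and 13 reads in WT against 1, 0 and 0 in Foxm1 HET. Itgb3, higher in Foxm1 HET, and Ndn, lower, were both without overlap, as were 8.68% of all genes tested. Cd27 had 845, 2412 and 725 in WT against 521, 11350 and 12618 in Foxm1 HET, with overlap.

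Genes of progenitors outside the LT-HSC gate numbered 22, of which 12 were tested, 6 in each direction (median 0.27). By edgeR 0 had an adjusted and 0 an unadjusted p under 0.05, where 0.329% and 6.03% of all genes tested did. Csf2ra, the receptor chain of GM-CSF, had 1127, 484 and 34743 reads in WT against 5741, 680 and 144 in Foxm1 HET. Gfi1b, a transcription factor gene of the erythroid and megakaryocytic lineages, had 130, 7 and 9 reads in WT against 6205, 323 and 1478 in Foxm1 HET. Its genotypes did not overlap, as for 8.68% of all genes tested (log2 fold change 5.20, SE 2.81, edgeR adjusted p = 0.886). Csf3r and Cd84 came next by p. Csf3r, lower in Foxm1 HET, had 6584, 3693 and 29283 reads in WT against 3856, 584 and 5733 in Foxm1 HET, also without overlap of log2 CPM. Cd84, a SLAM family gene, had 691, 975 and 146 in WT against 74, 4644 and 366 in Foxm1 HET, with overlap. Il7r, whose product was used to exclude lymphoid cells, had 155 reads in Foxm1 HET 1 and at most 1 elsewhere.

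Markers of mature lineages were measured beside these genes. Their summed CPM is per library total, without TMM scaling. The TMM factor was 0.757 in WT 3 and 1.54 in Foxm1 HET 1, so the order of libraries can differ from that of scaled levels. Granulocyte genes were the most abundant, with 9 or 10 of 11 at 10 reads or more in every library and a summed level of 5340 to 15842 CPM in WT against 1366 to 8527 CPM in Foxm1 HET. Per length, Lyz2, a lysozyme gene of myeloid cells, exceeded Kit in 6 of 6 libraries and Ngp, a neutrophil granule gene, in 5 of 6, although the sort excluded cells bearing Gr1. Foxm1 HET 3, the exception for Ngp and the library lowest in the granulocyte sum, was the library highest in Flt3 and Tek. It was highest in Kit by reads but not by log2 CPM. Monocyte and macrophage genes summed to 1980 to 5165 CPM in WT against 617 to 5123 CPM in Foxm1 HET, with Cd14 and C1qa at 3 reads or fewer everywhere. Erythroid genes (281 to 1223 CPM in WT, 91.3 to 486 CPM in Foxm1 HET) included Hba-a1 at that floor. Of the B cell genes, Cd79a, Ms4a1, Vpreb1 and Igll1 were at the floor. T and NK cell genes summed to 2.39 to 22.9 CPM in WT against 24.9 to 183 CPM in Foxm1 HET, with Cd3d, Cd3g and Cd8a at the floor. The sum came mostly from Klrb1c in Foxm1 HET 2 (2144 reads) and from Cd4 in Foxm1 HET 3 (2416 reads). WT 3 had 22.9 and Foxm1 HET 1 had 24.9 CPM, an order that the TMM factors of these 2 libraries reverse, so the genotypes overlap once scaled. Megakaryocyte genes summed to at most 9.39 CPM, with Gp1ba, Gp6 and Treml1 at the floor. Of the lineage genes tested, 0 had an unadjusted p under 0.05 by edgeR, where 6.03% of all genes tested did. Log2 fold changes were positive for 3 and negative for 7 granulocyte genes. These numbers were 0 and 5 for monocyte and macrophage genes and 0 and 7 for erythroid genes. They were 0 and 2 for B cell genes and 3 and 1 for T and NK cell genes. Over all 8195 genes tested, 3724 were positive. The part of such cells in the marker values was not tested.

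Tek, Procr and Cd34 are also expressed by endothelial cells. Endothelial markers summed to 0.826 to 63.7 CPM in WT against 42.9 to 107 CPM in Foxm1 HET, again per library total without TMM scaling. Plvap was at 3 reads or fewer in every library, Cdh5 had 51 reads in WT 1 and 0 in the others, and Kdr had 232, 1 and 0 reads in WT against 658, 0 and 0 in Foxm1 HET. Flt4 had 0 reads in each WT library against 90, 0 and 125 in Foxm1 HET. Flt1 had 86 reads in Foxm1 HET 1 and Stab2 had 18 in Foxm1 HET 3, each with 0 in the others. Foxm1 HET 3, with the most Tek reads of all libraries, thus had 0 reads of Cdh5 and Kdr but 962 of Emcn, 125 of Flt4 and 18 of Stab2. Foxm1 HET 2, also above all WT libraries for Tek, had 0 reads of Cdh5, Kdr and Emcn but 1563 of Pecam1, and its endothelial sum was the highest of all libraries. Pecam1, which leukocytes also express, had 97, 2 and 1371 reads in WT 1, 2 and 3 and 1052 and 2 in Foxm1 HET 1 and 3. The part of endothelial cells in the Tek values was not tested.

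For each tested marker, the gene with the most similar profile was found by Pearson's r of log2 CPM over the 6 libraries, as a description that shares library, depth and scaling. These were Acap1 for Kit (r = 0.988), Arhgef10l for Ly6a (0.999), Gcc1 for Cd48 (0.993), Zfp322a for Cd34 (0.988), Hibadh for Flt3 (0.984), Ptplb for Procr (0.994), Ptpn14 for Tek (0.997) and Eif3a for Cxcr4 (0.964). Ly6a had 131 further genes with r above 0.95 and Procr 80, while Kit had 12 and Cxcr4 1. With 6 libraries and 8195 genes, values of r this high arise for many genes and say nothing of shared function.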

How the data were processed

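RNA-Seq was performed on LT-HSCs of 3 WT and 3 Foxm1 HET mice. Per the labels and the study's methods, reads (50 bp, single) were mapped with STAR 2.7.2b to GRCm38. The counting program, the use of strand and the treatment of duplicates are not given in the sources used here. The sources name 2 kinds of library kit (Clontech, and a stranded kit with removal of ribosomal RNA). The authors deposited raw read counts for 27179 genes and, for 12179 of them, normalized values on a log2 scale, for which limma is named in the submitters' processing notes. Libraries were grouped by the genotype label and columns were matched by name.

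The count test was that of edgeR 4.0.16 (R 4.3.3; filterByExpr, TMM, quasi-likelihood test, Benjamini-Hochberg adjustment over the 8195 genes kept), fitted on all genes. Log2 CPM used a prior count of 2, and TPM came from counts and the deposited gene lengths. To obtain the SE, the log2 fold change was divided by the root of the F statistic. Exact permutation tests were two-sided. The normalized values were tested with limma 3.58.1. Alternatives were RLE, upper-quartile or no scaling, no filter on low counts or a minimum of 10 in every library, DESeq2 1.42.0, limma-voom, the replicate number as a block, TPM without mitochondrial and ribosomal RNA genes, and each library left out. Overlap with each library left out was a later addition, chosen after seeing the data. The tests were tested on simulated data with known changes before use. These were recovered where libraries varied little. At the spread estimated from these libraries edgeR and limma-voom did not recover them, and most genes called by DESeq2 were unchanged ones.

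Totals of 14573002 to 25798509 counted reads set the counting error, which is smaller than the spread between libraries. Names of genes came from the normalized table and RefSeq for 94.1% of identifiers. The markers and all gene lists were chosen with earlier results of these data known. Genes named were the 9 markers, the ligands of Kit, Flt3, Cxcr4 and Tek, in each list the 4 genes of lowest p, and the most similar gene for each marker. Lineage markers, Gpr56, Hlf and Il7r were named outside this rule, after their values were seen. Some of the listed genes are not reported here by name, and they are included in the counts over lists.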

Additional observations from a re-analysis of the deposited data

How the results depend on the processing

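The limits are the spread between libraries and the depth of low genes, with 0 to 3 reads for several markers in WT 3 and Foxm1 HET 2. Ly6a, Tek and Cxcr4 kept their direction under each of the 14 alternatives that gave them a value (a minimum of 10 counts in every library left Kit and Cd34 alone to test), and no marker had an adjusted p under 0.05 in any (lowest 0.346, Tek, DESeq2). All alternatives drew on these same libraries, so a kept direction is no second measurement. The direction of Cd34 turned with limma-voom (1.39), the normalized table (1.70), the replicate block (2.32) and without WT 2 (3.92). That of Cd48 turned with the block (0.57) and without WT 2 (1.18), that of Flt3 with the block (-0.81) and without Foxm1 HET 3 (-1.22), that of Kit without Foxm1 HET 2 (-0.12) and that of Procr without WT 2 (-0.024). With 1 library left out, log2 fold changes ran from -0.12 to 1.16 for Kit, from -7.27 to 1.18 for Cd48, from -2.24 to 3.92 for Cd34, from -1.22 to 1.74 for Flt3 and from -0.024 to 1.22 for Procr. The cause was not tested.

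Over all genes, 27 had an adjusted p under 0.05. The count was 10 with RLE, 43 with upper-quartile scaling, 7 with library size only, 0 with at least 10 counts in every library (157 unadjusted), 194 with DESeq2, 4 with limma-voom, 0 in the normalized table (576 unadjusted), 0 with the replicate block (108 unadjusted) and 0 to 29 with 1 library left out. It was 0 without WT 1, WT 2 or Foxm1 HET 2 and 1 without WT 3. The median log2 fold change of all genes, -0.26 as reported, lay at 0.14 with upper-quartile scaling and 0.26 with limma-voom. Markers with an unadjusted p under 0.05 numbered 2 with DESeq2, 1 with limma-voom and 2 in the normalized table. Markers without overlap numbered 0 with library size only and 1 to 3 with 1 library left out. Without mitochondrial and ribosomal RNA genes, the 18 mean TPM values were 1.77 to 2.05 times as high, which for 11 of them was a move of less than 1 SD. Libraries of the same replicate number did not deviate together (r = 0.016, -0.025 and -0.069), so the numbers were not taken as pairs, and the block changed no call of a marker.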
